A study of Mus musculus with 2 samples.

Results

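RNase P and RNase MRP are related ribonucleoprotein enzymes, each built on 1 catalytic RNA and a largely shared set of proteins. RNase P removes the leader from the 5′ end of tRNA precursors, and RNase MRP cuts the precursor of ribosomal RNA. Both RNAs are made by RNA polymerase III and carry no poly(A) tail. The group described here holds the RNase P RNA gene Rpph1, the RNase MRP RNA gene Rmrp, the RNase P RNA-like gene Rprl3, and the protein genes Pop1, Pop4, Pop5, Rpp30, Rpp38, Rpp40 and Rpp21. All 10 were found by symbol among the 23234 genes of the table. The group was chosen by the FPKM values of its RNA genes in this same comparison, where they were low, so their difference is a description of the libraries and carries no test.

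The data are RNA-seq values from round spermatids, germ cells that have completed meiosis and are haploid, of C57BL/6 mice. The library labelled Epc-dKO came from mice deficient for both Epc1 and Epc2, whose products belong to the TIP60 histone acetyltransferase complex, and the other library came from wild-type (WT) mice. How the deficiency was made, the age of the animals, their number, and whether poly(A) selection or rRNA depletion was used remain not given in the sources used here. Each genotype had 1 library, so the differences below lack a replicate check, and no p-value was computed. Values are FPKM, fragments per kilobase of transcript per 1000000 mapped fragments, and a level is per length. Expressed genes are those whose mean FPKM over the libraries was at least 1. Rose and fell are used of a gene that passed 2-fold on the log2 ratio, log2((FPKM + 1)/(FPKM + 1)), with the library labelled Epc-dKO above the WT library.

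Epc1 had an FPKM of 13.6 in the library labelled Epc-dKO and 11.4 in the WT library, and Epc2 had 10.5 and 7.12 in those libraries. Neither was lower than in WT. A gene-level value includes exons outside any deleted part, but no exon values were examined, and this was not tested. Of 10438 expressed genes, 196 (1.88%) fell and 287 (2.75%) rose, or 4.63% in either direction. The median log2 ratio of expressed genes was -0.05. On the TPM scale, with each library set to a sum of 1000000, 1054 fell and 545 rose. The FPKM sums were 198081 in the library labelled Epc-dKO and 193611 in the WT library, so this scale raised every value. The pseudocount and minimum stayed at 1, so both weighed less and more genes were counted. With FPKM set to a median ratio of 1 instead, 177 fell and 307 rose.

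The sequences of the RNA members are shown because Rprl3 is a close copy of Rpph1 and Rmrp is not, which bears on how far their values are separate measurements. They are given as DNA letters, 5′ to 3′, from GENCODE M21 transcripts, and for Rpph1 and Rprl3 only the aligned stretch is given. In Rpph1 and Rprl3 the capitals mark the bases that differ between them within their local alignment, substituted or unpaired. In Rmrp the capitals mark the longest run shared with Rpph1.
Rpph1: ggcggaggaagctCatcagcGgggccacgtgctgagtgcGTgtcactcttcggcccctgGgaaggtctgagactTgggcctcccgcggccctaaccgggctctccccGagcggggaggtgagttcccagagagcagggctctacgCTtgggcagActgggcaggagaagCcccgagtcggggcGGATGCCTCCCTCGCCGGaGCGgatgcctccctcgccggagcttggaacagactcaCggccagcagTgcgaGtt
Rprl3: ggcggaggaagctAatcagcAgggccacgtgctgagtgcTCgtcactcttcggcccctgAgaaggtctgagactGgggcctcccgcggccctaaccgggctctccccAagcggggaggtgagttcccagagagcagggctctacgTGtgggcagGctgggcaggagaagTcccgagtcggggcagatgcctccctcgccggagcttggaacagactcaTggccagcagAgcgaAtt
Rmrp: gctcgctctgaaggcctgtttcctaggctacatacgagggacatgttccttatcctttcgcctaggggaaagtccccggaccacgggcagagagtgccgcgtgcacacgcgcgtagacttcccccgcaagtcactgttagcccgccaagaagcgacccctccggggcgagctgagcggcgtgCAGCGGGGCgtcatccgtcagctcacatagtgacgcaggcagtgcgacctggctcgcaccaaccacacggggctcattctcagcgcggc
Bases 1 to 257 of the 319 of Rpph1 aligned with bases 1 to 236 of the 290 of Rprl3. In this stretch 222 of 236 paired bases were identical (94.1%), 14 differed, and 21 bases of Rpph1 had no partner. The longest identical run was 37 bases, so a read within such a run cannot be assigned to one of the 2 genes, and their values are uncertain to that extent. Rprl1 and Rprl2, the other RNase P RNA-like genes, were 91.5% and 93.6% identical to Rpph1 over their aligned bases. Rmrp, printed in the annotated form of 271 nt, shared no run with Rpph1 longer than 9 bases. Reads of Rmrp are therefore distinct from those of the RNase P RNA genes.

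All 3 RNA members fell. Rpph1, whose RNA is the catalytic core of RNase P, had an FPKM of 5.76 in the library labelled Epc-dKO and 39.2 in the WT library, a log2 ratio of -2.57. Rmrp, the RNA of RNase MRP, had 6.23 in the library labelled Epc-dKO and 34.4 in the WT library, a log2 ratio of -2.29. Rprl3 had 1.47 in the library labelled Epc-dKO and 14.6 in the WT library, a log2 ratio of -2.66. These were 3 of 3 RNA members, beside the 1.88% of expressed genes that fell, a share that the choice of these genes fixes. Without a pseudocount the FPKM in the library labelled Epc-dKO was 0.147 of the WT value for Rpph1, 0.181 for Rmrp and 0.101 for Rprl3. All 3 had a value above 0 in both libraries, though a read within a run shared by Rpph1 and Rprl3 cannot be assigned. Rmrp, with a sequence of its own, had the ratio nearest to 1 of the 3. In level, Rpph1 exceeded 79.0% of all listed genes in the library labelled Epc-dKO and 95.2% in the WT library. Rmrp exceeded 79.8% and 94.5%, and Rprl3 62.0% and 88.4%, of listed genes in those libraries.

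**Figure D1:**
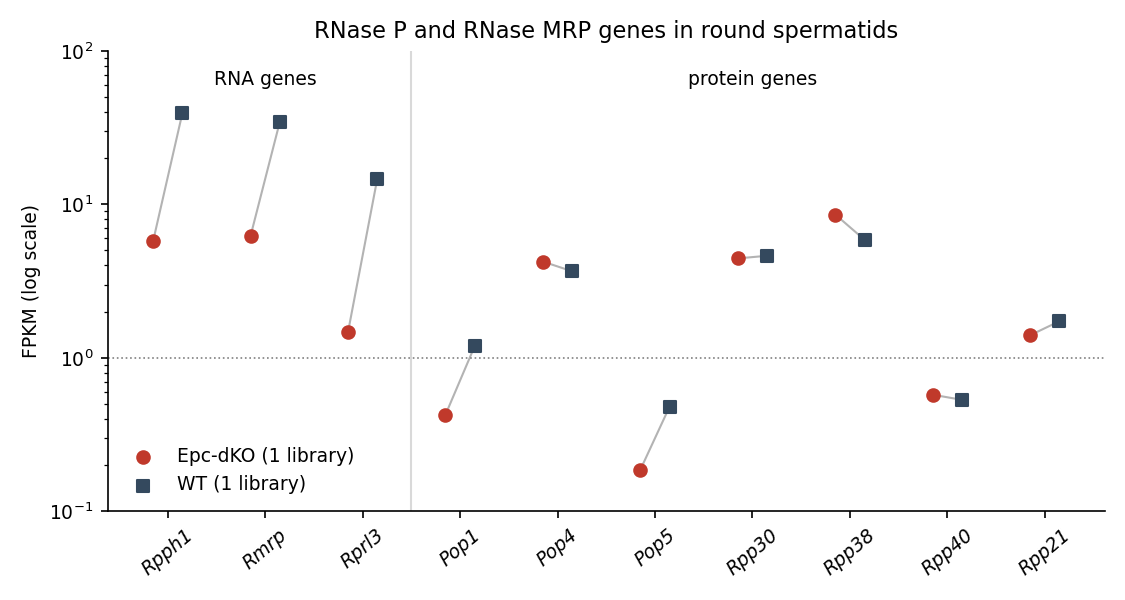
FPKM of each member on a log axis, with the library labelled Epc-dKO as a red circle at the left and the WT library as a dark square at the right of each pair, and a dotted line at an FPKM of 1. The 3 RNA genes drop to between 1.47 and 6.23 in the library labelled Epc-dKO, against 14.6 to 39.2 in the WT library. Pop1 and Pop5, below the dotted line on average, are also lower at 0.426 and 0.187, against 1.19 and 0.481 in the WT library, Rpp38 is higher by a ratio of 1.46, and Pop4, Rpp30, Rpp40 and Rpp21 differ less.

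Ratios between RNA members differed less between the libraries than their levels did. This follows from choosing genes that were all low in the library labelled Epc-dKO. Rpph1 stood at 0.925 times the FPKM of Rmrp in the library labelled Epc-dKO and at 1.14 times in the WT library. Rprl3 stood at 0.256 times the FPKM of Rpph1 in the library labelled Epc-dKO and at 0.374 times in the WT library. Against Rmrp, Rprl3 stood at 0.236 and 0.425 times in those libraries, the widest difference of these ratios. The 3 RNA values summed to an FPKM of 13.5 in the library labelled Epc-dKO and 88.2 in the WT library. Rprl1 and Rprl2, which are no members and were looked up after the values were seen, were listed at 0 in the library labelled Epc-dKO, with 1.43 and 0.446 in the WT library. Both were below the expression minimum.

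The depth of the libraries is not given, but their low values move in steps. Among 2539 genes with a mean FPKM under 0.1 and a value above 0 in both libraries, 325 had the same ratio, within 0.01 on the log2 scale. That ratio, 0.905, is taken as what 1 fragment was worth in the library labelled Epc-dKO relative to the WT library, which puts 1.10 mapped fragments in the library labelled Epc-dKO for each 1 in the WT library. With this factor removed, 77.6% of genes whose mean FPKM was under 0.1 and 17.3% of those at 1 or more had a ratio equal, within a relative tolerance of 1e-05, to a pair of whole numbers up to 100. Such pairs cover 2.38% of the log range of ratios between 0.1 and 10.

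For the RNA members the steps allow few statements. The ratio of Rprl3 equalled 1 fragment in the library labelled Epc-dKO for 9 in the WT library, and that of Rmrp 1 for 5. These are the smallest whole pairs, and any multiple of them gives the same ratio. Rpph1 matched no pair of numbers up to 100. The number of fragments behind each value is unknown, so no interval is given.

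Of the 7 protein members 4 were expressed. Of Rpp38, Pop4, Rpp30 and Rpp21, none rose and none fell, beside 4.63% of expressed genes past 2-fold in either direction. Their median log2 ratio was 0.06, beside -0.05 for all expressed genes. Over all 7 it was -0.05 with no minimum, and -0.09 on the TPM scale, where all 7 passed the minimum. Rpp38, an RNA-binding subunit of both enzymes, had the highest protein-gene level, with an FPKM of 8.58 in the library labelled Epc-dKO and 5.87 in the WT library, a log2 ratio of 0.48. Rpp30, a subunit of both enzymes, had 4.44 in the library labelled Epc-dKO and 4.62 in the WT library, a log2 ratio of -0.05. Pop4, also called Rpp29 in human cells, had 4.23 and 3.66 in those libraries, a log2 ratio of 0.17. Rpp21, known in human cells as a subunit of RNase P rather than RNase MRP, had 1.40 in the library labelled Epc-dKO and 1.73 in the WT library, a log2 ratio of -0.19.

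The other 3 protein members were below the expression minimum. Pop1, the largest protein of both enzymes, had an FPKM of 0.426 in the library labelled Epc-dKO and 1.19 in the WT library. Its log2 ratio was -0.62, and -1.19 on the TPM scale, where it passed 2-fold. Pop5 had 0.187 in the library labelled Epc-dKO and 0.481 in the WT library, and its ratio equalled 3 fragments for 7 as the smallest pair. Rpp40 had 0.575 and 0.532 in those libraries. The sum over the 7 protein genes was 19.8 in the library labelled Epc-dKO and 18.1 in the WT library. Their median went the other way, at 1.40 and 1.73 in those libraries. The RNA sum was 0.679 times the protein sum in the library labelled Epc-dKO and 4.88 times in the WT library.

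In the library labelled Epc-dKO the order of levels ran Rpp38, Rmrp, Rpph1, Rpp30, Pop4, Rprl3, Rpp21, Rpp40, Pop1 and Pop5. In the WT library it ran Rpph1, Rmrp, Rprl3, Rpp38, Rpp30, Pop4, Rpp21, Pop1, Rpp40 and Pop5. All 3 RNA genes stood above every protein gene in the WT library, and none stood above Rpp38 in the library labelled Epc-dKO. With 1 library each, whether neighbours in either order differ cannot be said. The RNA genes are also short, and FPKM of transcripts near the fragment length depends strongly on the length correction.

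**Figure D2:**
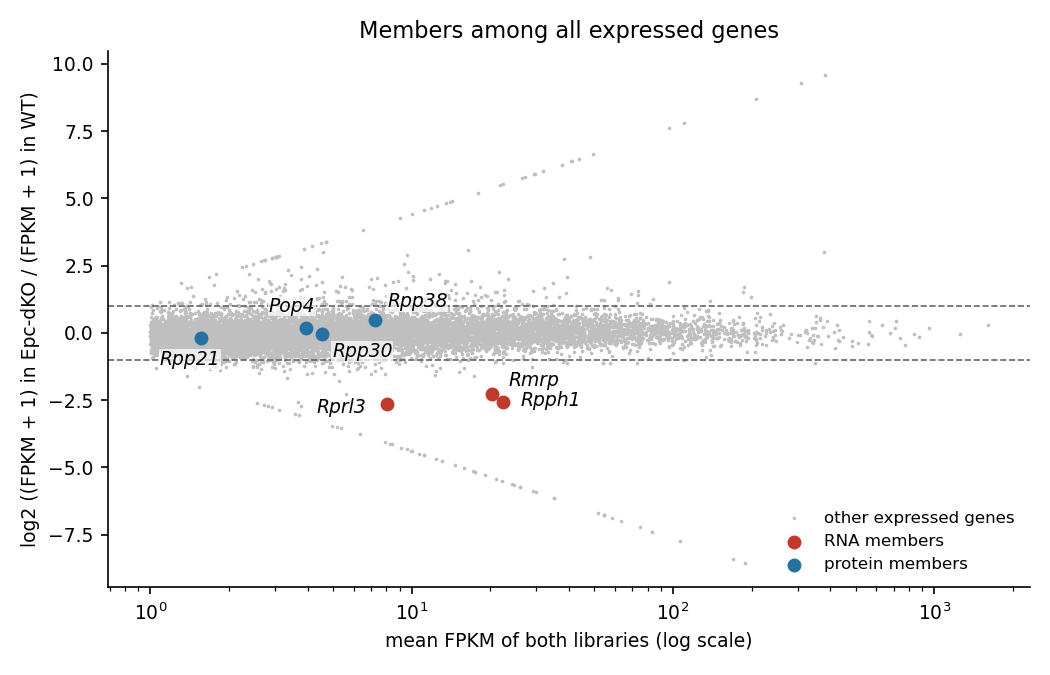
Log2 ratio of each expressed gene against its mean FPKM over both libraries (log axis), with expressed members as large points and dashed lines at 2-fold. The RNA members (red) lie at -2.29 to -2.66, and the 4 expressed protein members (blue) lie between -0.19 and 0.48; the diagonal streaks are genes listed at 0 in 1 of the libraries.

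Other proteins of the enzymes were low in both libraries. Pop7 and Rpp25, which form a pair that binds the RNA, had FPKM values of 0.374 and 0 in the library labelled Epc-dKO, against 0.413 and 0.0709 in the WT library. Rpp14 had 0.140 in the library labelled Epc-dKO and 0.417 in the WT library. Rpp25l, a relative of Rpp25 listed under an older symbol, had 1.31 and 1.49 in those libraries and was the 1 expressed gene of the 4 found. Mitochondria use an RNase P made of protein alone. Its subunit genes Trmt10c and Prorp, listed under older symbols, had log2 ratios of 0.02 and 0.21. The third, Hsd17b10, had 0.415 in the library labelled Epc-dKO and 0.839 in the WT library, below the expression minimum.

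RNA polymerase III transcribes the RNA genes. Of its 15 expressed subunit genes 0 fell and 0 rose, beside the 4.63% of all expressed genes past 2-fold, with a median log2 ratio of -0.08. The log2 ratio was below 0 for 12 of the 15, beside 5677 of all 10438 expressed genes. On the TPM scale 1 subunit gene fell. Polr1d, the most abundant, had an FPKM of 31.6 in the library labelled Epc-dKO, against 30.2 in the WT library, and Polr3c had 22.5 against 22.8 in those libraries. Polr3d (-0.66) and Polr2e (-0.64) had the largest log2 ratios by size. Of 18 expressed factor genes 0 fell and 0 rose, with a median of -0.18, and 13 of the 18 were below 0. Tbp, for the TATA-binding protein, had 51.5 in the library labelled Epc-dKO and 40.4 in the WT library. Gtf3c1, of the factor TFIIIC, had 40.03 and 45.01 in those libraries. Snapc1 and Snapc3, of the complex that recruits the polymerase to genes of this promoter type, had log2 ratios of -0.59 and -0.46. Of the other RNA polymerase III transcripts looked up, 2 of 10 were in the table, the vault RNA gene Vaultrc5 and Bc1, and both were listed at 0 in both libraries.

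Of the genes acting beside the enzymes, Las1l and Tent4b passed 2-fold, to be read against 4.63% of all expressed genes. Among 12 expressed genes of nuclear tRNA maturation 0 fell and 0 rose, with a median log2 ratio of -0.07. Elac2, the nuclease that trims the 3′ end of tRNA precursors, had an FPKM of 6.41 in the library labelled Epc-dKO and 12.3 in the WT library, a log2 ratio of -0.84. Trnt1, which adds the CCA end, had 0.50, and the abundant Ddx1 and Rtraf of the tRNA ligase complex had 0.17 and 0.19. Among 24 expressed genes of pre-rRNA processing 1 fell and 0 rose, and the median was -0.37. The log2 ratio was below 0 for 18 of the 24, beside 5677 of all 10438 expressed genes. The count that fell was 3 with a pseudocount of 0.1 or on the TPM scale, and 0 at a median ratio of 1. Las1l, an endonuclease of pre-rRNA, fell to 0.694 in the library labelled Epc-dKO, against 2.40 in the WT library. Its log2 ratio of -1.01 became -0.99 when the libraries were set to a median ratio of 1. Nop56, a box C/D snoRNP protein, had -0.85, while the abundant Rrp1 and Npm1 had 0.01 and 0.05. Among 15 expressed genes of the nuclear exosome and its cofactors 1 rose and 0 fell, with a median of -0.02. Tent4b, listed as Papd5, a nuclear poly(A) polymerase that tags RNAs for the exosome, rose to 31.4 in the library labelled Epc-dKO, against 13.6 in the WT library (log2 ratio 1.15). Zcchc7, its partner in the tagging complex, had 0.80, Exosc5 had -0.43 and Exosc10 had -0.08.

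**Figure D3:**
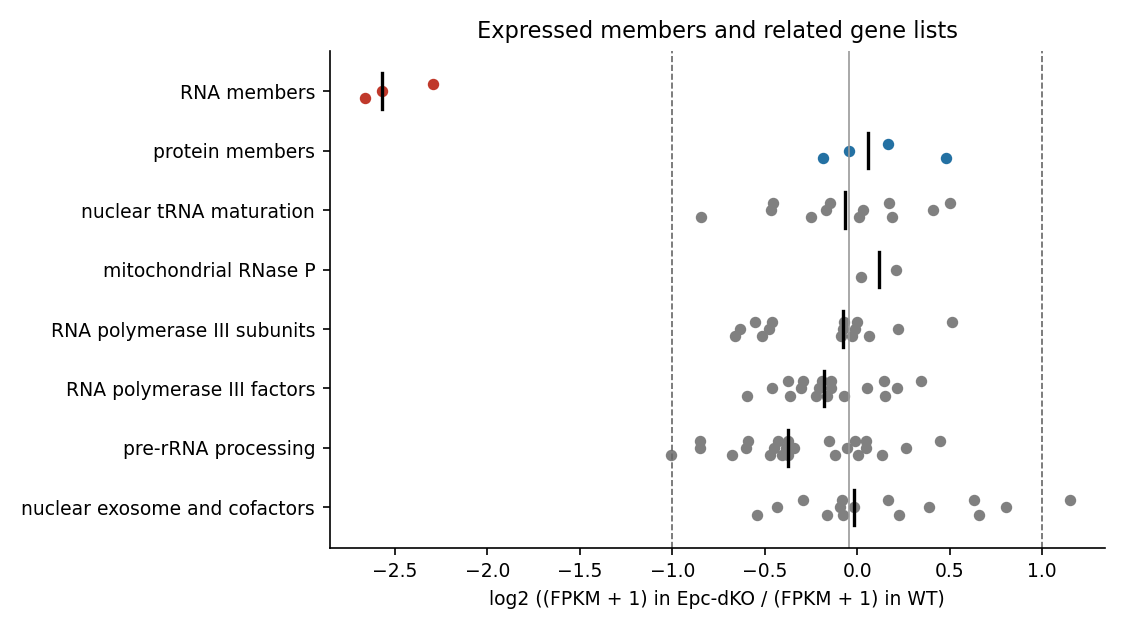
Log2 ratio of every expressed gene in each list, 1 point per gene, with a black bar at the list's median, dashed lines at 2-fold and a grey line at the median of all expressed genes. The RNA members stand at -2.29 to -2.66, while the lists of polymerase III, tRNA maturation, pre-rRNA processing and exosome genes have medians between -0.37 and -0.02.

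Rpph1 and Rmrp each lie close to a protein gene that is read in the other direction, and the windows around the starts of the protein genes are shown because both genes of each pair start near them. RefSeq gives windows of 300 bases around the starts of Parp2 and Ccdc107 on GRCm38.p6, a later build than mm9, the build named for these values. Capitals mark matches to ATGCAAAT, the octamer bound by POU-domain factors, or to TATAAA, the core of a TATA box, searched on both strands with no overlap between the 2 motifs.
Parp2 side of Rpph1, chr14:50807666-50807965, plus strand: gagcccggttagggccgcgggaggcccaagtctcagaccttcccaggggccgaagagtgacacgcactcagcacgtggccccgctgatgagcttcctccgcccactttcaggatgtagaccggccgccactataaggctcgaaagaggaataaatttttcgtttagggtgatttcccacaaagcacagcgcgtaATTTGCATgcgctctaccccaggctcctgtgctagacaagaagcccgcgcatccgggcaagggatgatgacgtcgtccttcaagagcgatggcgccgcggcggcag
Ccdc107 side of Rmrp, chr4:43493115-43493414, plus strand: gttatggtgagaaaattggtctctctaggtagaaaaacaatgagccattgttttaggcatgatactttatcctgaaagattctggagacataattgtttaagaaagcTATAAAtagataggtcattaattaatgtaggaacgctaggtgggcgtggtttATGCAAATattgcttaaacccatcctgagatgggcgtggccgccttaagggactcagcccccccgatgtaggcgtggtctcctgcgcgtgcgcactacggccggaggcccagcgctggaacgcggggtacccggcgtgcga
The first 106 bases of the Parp2 window lie inside Rpph1, which is on the minus strand, and the Ccdc107 window lies wholly outside Rmrp, without the bases next to it. Each window held 1 octamer, whose nearer end lies 89 bases from the start of Rpph1 and 215 from that of Rmrp. The octamer was found in 1.74% of 32851 windows of the same length and TATAAA in 13.6%. The Ccdc107 window held 1 TATAAA and the Parp2 window 0. That TATAAA is on the plus strand, 163 bases from the start of Rmrp, which is on the minus strand. Bases next to Rmrp lie outside this window and were not searched. A match describes the sequence and no measurement here shows binding.

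Parp2, which encodes a DNA repair polymerase and starts 126 bases from Rpph1, had an FPKM of 1.91 in the library labelled Epc-dKO and 2.08 in the WT library. Its log2 ratio of -0.08 stood beside -2.57 for Rpph1. Ccdc107, which starts 281 bases from Rmrp, had 0.120 in the library labelled Epc-dKO and 0.310 in the WT library, below the expression minimum. On their other sides Ccnb1ip1 had 0.112 and 0.414 in those libraries, and Sit1 was listed at 0 in both. Rprl3 has no listed gene within 44614 bases, and its nearest, Cd209e and Cd209a, had FPKM values under 0.04 in both libraries.

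Short genes need separate reading, since many are listed at 0 in 1 library. Among 138 expressed genes whose longest annotated transcript is 150 nt or less, 59 (42.8%) fell and 54 (39.1%) rose. Together these are 81.9%, beside 4.63% of all expressed genes. Of the 138, 50 were listed at 0 in the library labelled Epc-dKO and 48 in the WT library. Such a gene is expressed only through the other library and then passes 2-fold by the rule itself. Its call therefore does not show how much short genes vary. In the range of 200 to 400 nt, which holds the RNA members, 9 of 42 expressed genes fell (21.4%) and 3 rose (7.14%), 28.6% in either direction. Rprl3, Rpph1 and Rmrp had the 3 lowest log2 ratios of the 42. Next came the histone gene Hist1h4k at -1.26, named after its values were seen. Of the 39 genes in this range other than the RNA members, 6 fell, and their median was -0.08. The range holds 12 histone genes, also grouped after the values were seen, all below 0 with a median of -0.84, of which 5 fell. At the other end Scarna10, a Cajal body RNA of 325 nt, was listed at 0 in the WT library and had 75.2 in the library labelled Epc-dKO.

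**Figure D4:**
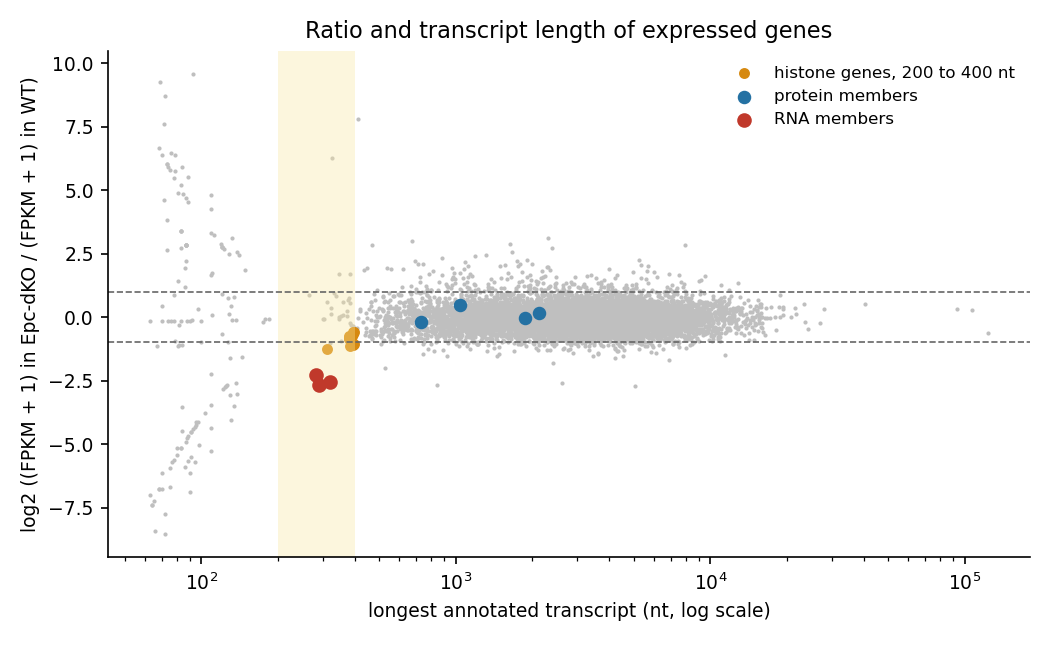
Log2 ratio of expressed genes against the longest annotated transcript (nt, log axis), with the range of 200 to 400 nt shaded and dashed lines at 2-fold. The RNA members (red) are the lowest 3 points in the shaded range, the histone genes there (orange) lie between -0.58 and -1.26, and shorter genes scatter widely in both directions.

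Snora genes, which encode H/ACA snoRNAs, had 4 higher and 5 lower past 2-fold of 16 expressed. Snord genes, for C/D snoRNAs, had 9 higher and 11 lower of 23. MicroRNA genes had 42 higher and 41 lower of 101. Of all expressed genes 4.63% passed 2-fold. Listed at 0 in the library labelled Epc-dKO were 4 Snora, 9 Snord and 35 microRNA genes, and in the WT library 3, 9 and 37. The expression minimum and the 2-fold rule together fix the calls of such genes, so these counts do not measure a response. With a minimum mean FPKM of 5, Snora genes had 0 higher and 2 lower. Both expressed Scarna genes rose and were listed at 0 in the WT library. The 1 expressed Rnu gene fell and was listed at 0 in the library labelled Epc-dKO.

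Of 5328 genes that averaged at least 5 FPKM, 47 had a log2 ratio at or below that of Rmrp, the RNA members included, and 42 of the 47 were listed at 0 in the library labelled Epc-dKO. Besides the RNA members, the genes above 0 were Mir686, at 0.00735 in the library labelled Epc-dKO and 38.1 in the WT library, and 4930461G14Rik, at 0.763 and 10.3 in those libraries. By distance from the RNA members' median of -2.57 over the 2 libraries, the most alike of the other 5325 genes were 4930461G14Rik (-2.67), Mir669a-3 (-2.26), 1700029I01Rik (-1.80), Rnu11 (-3.50) and Snora31 (-1.61). Rnu11, the U11 RNA of the minor spliceosome, was listed at 0 in the library labelled Epc-dKO and had 10.3 in the WT library. Snora31 had 8.03 and 26.6 in those libraries.

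Markers of the cells that a round spermatid fraction could hold moved unequally. The 16 round spermatid markers were all detected and summed to an FPKM of 2170 in the library labelled Epc-dKO and 1112 in the WT library. Of these 4 rose and 0 fell, beside 2.75% of all expressed genes that rose and 1.88% that fell. In 3 the log2 ratio was below 0, and the median was 0.32, less than the 0.96 of the sums. Prm1 had 85.0 and 11.2 in those libraries, Acrv1 had 62.7 and 60.8, and Spaca1 had 60.7 and 81.7. Of 18 spermatogonial markers, 17 had a lower FPKM than in WT and none was listed at 0, with sums of 22.6 in the library labelled Epc-dKO and 48.1 in the WT library. Over 11 Sertoli markers the sums were 8.63 in the library labelled Epc-dKO and 14.0 in the WT library, with 1 marker listed at 0 in the WT library. Over 10 Leydig markers they were 31.7 and 50.7, and over 10 peritubular and stromal markers 44.2 and 31.2, in those libraries. Of these last 10, however, 8 had a lower FPKM than in WT, the 5 expressed had a median log2 ratio of -0.58, and 1 rose. Spermatocyte markers summed to 279 in the library labelled Epc-dKO and 299 in the WT library. Among expressed markers, 3 of 9 Leydig, 2 of 13 spermatogonial and 1 of 13 spermatocyte genes fell, and 0 rose. Of 10 blood and endothelial markers, Hba-a1 and Hbb-b1 were listed at 0 in both libraries, and the sums were 5.16 and 5.73. The part of these cell types in the values of the RNA members was not tested. In bulk samples fewer cells of a type and less RNA per cell cannot be told apart.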

How the data were processed

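Total RNA of round spermatids was made into directional libraries with the NEBNext Ultra Directional kit and sequenced on a HiSeq instrument, per the labels' protocols. The deposited values are FPKM per gene, 1 column for each genotype; the authors used Cufflinks 2.2.1 and mm9, per the submitters' processing notes. Aligner, annotation and strand setting remain not given in the sources used here. Of 23235 rows, 1 held library codes and was left out. With 1 library per genotype no test was run. The log2 ratio used a pseudocount of 1, a minimum mean FPKM of 1 and a 2-fold rule, tested on simulated data; this scale understates the change of low genes.

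The members and lists were chosen with earlier results of these data known. Named are all members, the other RNase P and mitochondrial RNase P genes, each list's 2 most abundant, 2 most changed and any past 2-fold, neighbours, and the 5 most alike genes. Older symbols were matched through RefSeq (206 of 216 entries found). Lengths come from GENCODE M21 (98.7% of expressed genes), sequences from GENCODE M21 and RefSeq. RNAs were aligned locally with Biopython 1.88. Matplotlib 3.10.9 gave the figures, and pandas 2.3.3 with NumPy 2.4.6 under Python 3.11.15 the rest. Alternatives were other pseudocounts, minima, scalings, a 4-fold rule and a wider length range.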

Additional observations from a re-analysis of the deposited data

How the results depend on the processing

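The 3 RNA members fell under each of the 8 other pseudocounts, minima and scalings (24 of 24 values past 2-fold), with log2 ratios of -2.54 to -2.76 for Rpph1, -2.26 to -2.46 for Rmrp and -2.64 to -3.23 for Rprl3. A pseudocount cannot change a sign, and a changed minimum leaves a gene's own value as it was. Values under the other minima therefore repeat the main ones, in the 24 as in the totals that follow. The RNA members were chosen by these same FPKM values, so their 24 values are no separate support. Of 80 member values, 77 stayed within 1.5 times and on the same side of 2-fold, and of 496 values of all named genes 467 did. No value past 2-fold changed sign. Values close to 0 did for Rg9mtd1 (Trmt10c, -0.01 with upper quartiles, -0.0024 on the TPM scale) and Rrp1 (-0.03 on the TPM scale, -0.04 with upper quartiles, -0.02 with sums without the 100 highest genes). They also did for Polr3c (0.02 at a median ratio of 1) and Acrv1 (-0.0022 with upper quartiles). The protein members' median was -0.09 on the TPM scale and -0.05 with no minimum, both over all 7 rather than 4. With a minimum of 5 it was 0.48, where Rpp38 alone was counted. The exceptions among members were Pop1, at -1.30 with a pseudocount of 0.1 and -1.19 on the TPM scale, and Pop5, at -1.02 with a pseudocount of 0.1. Counts moved more. With a pseudocount of 0.1, 433 genes were higher and 652 lower, 3 pre-rRNA processing genes were lower, and 7 genes of 200 to 400 nt were higher and 14 lower; with 0.5, 364 genes were lower. With a minimum mean FPKM of 5, which counts fewer genes, 166 were higher and 105 lower, 0 pre-rRNA genes were lower, Snora genes had 0 higher and 2 lower, 23 Mir genes were higher, and the length range had 1 higher and 5 lower. On the TPM scale 545 were higher and 1054 lower, the length range had 12 higher and 19 lower, and 3 pre-rRNA genes were lower. Protein members, tRNA maturation, polymerase III subunits, exosome and Scarna genes each had 1 lower there. The pseudocount and minimum of 1 weighed less on this scale and more genes were counted, so these counts do not show scaling alone. At a median ratio of 1, with upper quartiles or with sums without the 100 highest genes, 0 protein members were lower. At a median ratio of 1, 0 pre-rRNA genes were lower. By the 4-fold rule 76 were higher and 59 lower, 0 pre-rRNA genes were lower, 0 exosome genes higher, and the length range had 1 higher and 3 lower. At 150 to 600 nt, 10 genes were higher. No paired analysis was possible because there is 1 library per genotype. The number of fragments behind each value is unknown, which limits what low values can show.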

Other observations

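Scarna2, a Cajal body RNA of 414 nt looked up after the values were seen, had an FPKM of 220.6 in the library labelled Epc-dKO and was listed at 0 in the WT library. Terc, the telomerase RNA, was listed at 0 in both libraries.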
